A study of Mus musculus with 69 samples.

Results

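The collagen chain genes were described here in mouse hearts after cyanide exposure. Their members were all probe sets, the sets of short probes that measure a transcript on the array, whose only annotated gene symbol is Col, a number, the letter a and a number. This gave 68 of the 45141 probe sets, and they covered 42 of 17097 named genes, 21 of them with several probe sets. Hearts came from adult male CD-1 mice of 20 to 35 g, an outbred stock, that were not anesthetized during exposure. In the injection arm, mice received KCN at 8.0 mg/kg under the skin or the same volume of saline, and hearts were collected 1, 2, 4, 8 or 24 h later. In the inhalation arm, mice breathed HCN at 327 ppm or air through a nose-only system, and hearts were collected at 1, 2, 4 or 24 h. Of the 18 groups, 15 held 4 arrays, and KCN at 4 h and saline at 2 and 4 h held 3, which gave 37 injection and 32 inhalation arrays. The labels call the arrays of a group biological replicates and name no mouse, so p-values measure the spread between these arrays.

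Collagens are the main structural proteins of the extracellular matrix, and each molecule is a triple helix of alpha chains encoded by separate genes. Fibrillar collagens (types I, II, III, V, XI, XXIV and XXVII) form fibrils. The load-bearing fibres between heart muscle cells are mainly of types I and III, with type I the stiff form, type III the finer form and type V a regulator of fibril diameter. Type IV collagens form the sheet of the basement membrane around muscle cells and capillaries. Type VI forms beaded filaments that link that sheet to the fibres, type VIII forms networks in vessels, and the fibril-associated collagens (IX, XII, XIV, XVI, XIX, XX and XXII) coat fibrils. The multiplexins XV and XVIII sit at basement membranes, and types XIII, XVII, XXIII and XXV span the cell membrane. In the heart most fibrillar collagen is made by fibroblasts, while endothelial cells and pericytes are further sources of type IV.

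Promoter sequence was available for 33 of the 42 genes, as 36 windows in the RefSeq table of build GRCm38.p6. The 250 bases before the transcription start are shown for 3 genes of different structural forms: fibril (Col3a1), beaded filament (Col6a1) and network (Col8a1). Each had a probe set called higher after KCN at 24 h. The basement membrane chains Col4a1 and Col4a2 were also called higher then and are not shown. Capitals mark the TATA box letters TATAAA, the letters CCAAT and the GC box letters GGGCGG, searched on both strands, so that CCGCCC is a GC box read from the other strand. Sequences read 5′ to 3′ on the strand of the gene: Col3a1 at chr1:45311288-45311537 on the plus strand, Col6a1 at chr10:76726045-76726294 on the minus strand and Col8a1 at chr16:57754738-57754987 on the minus strand.
Col3a1: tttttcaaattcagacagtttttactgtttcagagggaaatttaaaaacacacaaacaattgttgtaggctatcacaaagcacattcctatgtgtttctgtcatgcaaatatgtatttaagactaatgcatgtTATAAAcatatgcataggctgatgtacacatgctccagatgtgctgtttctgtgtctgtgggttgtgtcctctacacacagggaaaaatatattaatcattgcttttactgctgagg
Col6a1: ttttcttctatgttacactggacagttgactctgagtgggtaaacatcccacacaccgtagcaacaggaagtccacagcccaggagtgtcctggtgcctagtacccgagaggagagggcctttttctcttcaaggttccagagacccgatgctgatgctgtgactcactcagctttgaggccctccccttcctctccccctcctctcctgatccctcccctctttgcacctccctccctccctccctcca
Col8a1: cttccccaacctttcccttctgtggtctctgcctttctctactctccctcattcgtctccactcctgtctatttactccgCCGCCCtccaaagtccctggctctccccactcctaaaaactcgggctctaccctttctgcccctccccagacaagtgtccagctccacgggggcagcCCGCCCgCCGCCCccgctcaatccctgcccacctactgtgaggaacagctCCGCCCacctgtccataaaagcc
The Col3a1 window held 1 TATAAA, neither of the other motifs, and 35.2% G or C. The Col6a1 window held none of the 3 motifs, and the Col8a1 window held 4 GC boxes, with a G or C content of 56.0% and 60.8%. Among all 32851 windows of this length, 12.4% held TATAAA, 33.8% CCAAT and 32.7% GGGCGG. Of the 36 collagen windows, 5 held TATAAA, 13 CCAAT (36.1%) and 21 GGGCGG (58.3%). These matches describe letters only. Of the 3 motifs, none occurred in all 3 printed windows.

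All values are log2 signals as deposited, and a difference of 1 is a doubling. The analysis kept the 26755 probe sets with a mean over 3.23, the middle value of all group means, in some group; "near background" below means a group mean under that level. Of the collagens, 49 probe sets of 32 genes passed: 13 of 18 fibrillar, all 11 basement membrane, 5 of 7 beaded filament, 4 of 5 network, 6 of 15 fibril-associated, all 3 multiplexin, 5 of 7 transmembrane, and the 2 of Col7a1, which anchors epithelium, and Col26a1. The 10 genes with no passing probe set were Col1a2, Col11a2, Col24a1, Col6a5, Col10a1, Col9a2, Col12a1, Col19a1, Col20a1 and Col17a1. Col1a2, the partner chain of Col1a1 in type I collagen, was represented by only 1 probe set, 1446326_PM_at, with a mean of 2.67 over the 69 arrays and a range of 2.33 to 3.25, so type I collagen was read through Col1a1 alone. The tissue label was checked on 5 cardiomyocyte markers, which summed to between 15.16 and 15.54 on every array. Of 5 skeletal muscle markers, Myh4, Myh1 and Tnnt3 were near background, while Acta1 and Ckm, which heart muscle also expresses, were not. These checks do not measure other tissue taken with the heart. Of the adipocyte markers, Adipoq was higher after KCN than in saline by 2.15 to 2.46 over the 5 times, and Ucp1 by 1.88 to 3.72. Neither was called, and Lep was near background in these groups. After HCN, Adipoq differed from air by -0.90 to 0.07. Airway markers also differed between KCN and saline at 1 h, as given below. In such bulk tissue, fewer cells of a type and less RNA per cell cannot be told apart. The 2 arms differed in their upper range, with a median 95th percentile of 9.24 for injection and 9.52 for inhalation arrays, so levels are compared only within an arm.

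Collagen levels differed between the saline groups themselves. Over the 5 saline times, 23 of the 49 probe sets (18 genes) differed by limma's F test with Benjamini-Hochberg adjustment over all tested probe sets, against 38.4% of all probe sets. They included 7 fibrillar, 5 basement membrane and 4 beaded filament probe sets, and the others were Col8a1, Col8a2, Col15a1, Col16a1, Col18a1, Col25a1 and Col26a1. Saline at 2 h was the highest group in 22 of the 23 and saline at 24 h the lowest in 19. For Col5a3, a chain of type V collagen, the saline mean was 7.41 at 2 h and 5.66 at 24 h (adjusted p = 9.10e-08). For Col4a1, a chain of the ubiquitous type IV network, probe set 1426348_PM_at ran from 9.56 at 2 h to 7.84 at 24 h (adjusted p = 5.58e-10). Col3a1 on probe set 1427883_PM_a_at ran from 12.70 to 11.89 at the same times (adjusted p = 9.48e-06). Each of these genes was thus lowest in the group that served as control for KCN at 24 h. The 6 fibroblast markers summed to 13.20 to 13.51 in saline at 2 h and 12.72 to 12.88 at 24 h, and the 5 platelet markers to 8.98 to 9.96 and 8.61 to 9.10. The actin ratio, a measure of RNA and labelling quality defined below, averaged 0.841, 0.422, 0.860, 0.454 and 0.878 in saline at 1, 2, 4, 8 and 24 h. The part of these in the collagen levels was not tested.

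In the air groups, 4 of 49 differed over time, against 16.8% of all probe sets. Col3a1 was lowest at 2 h, with a mean of 12.07, and highest at 4 h, with 12.73 (adjusted p = 0.000206 by limma). The others were Col5a2 (1450625_PM_at), the Col4a4 probe set 1440250_PM_at and Col16a1. The median of the 23 saline-varying probe sets, relative to the mean of the saline groups, was 0.58 at 2 h and -0.42 at 24 h, while in the KCN groups it was 0.31 and 0.01. These probe sets were chosen for differing between the saline groups, so their saline range is wide by choice. On them the KCN median at 24 h lay near the mean of the saline groups.

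**Figure D1:**
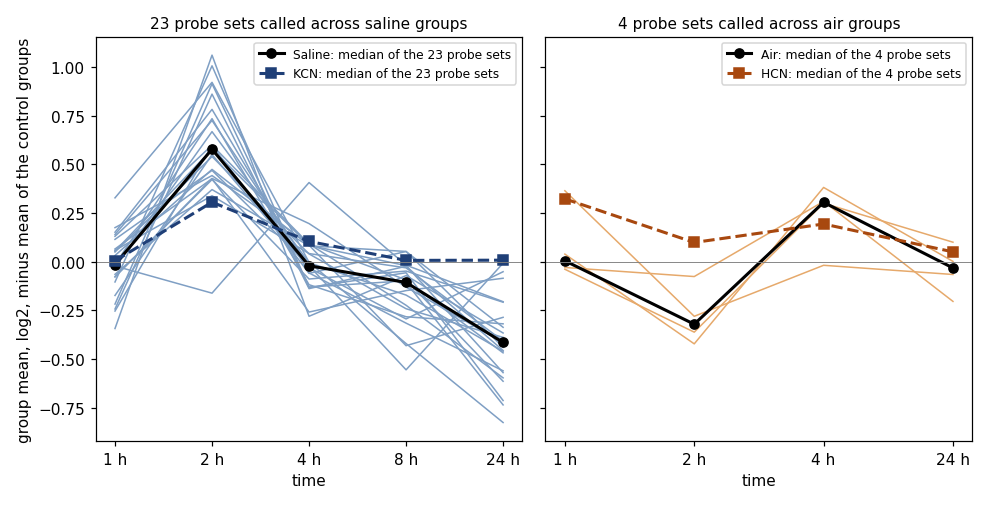
Group mean log2 signal of the collagen probe sets that differed over time in saline (23 probe sets, left) or air (4 probe sets, right), each minus the mean of its control groups, against hours after exposure. Thin lines are control groups, the black line their median and the dashed line the median of the cyanide groups; the saline median is 0.58 at 2 h and -0.42 at 24 h, and the KCN median at 24 h is 0.01.

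KCN against saline at 24 h had more collagen calls than the other comparisons at single times. Here 7 probe sets of 6 genes were higher and 1 was lower, 16.3% of the 49, against 11.9% of all probe sets (6.79% higher, 5.14% lower). The 7 were Col3a1, Col4a1, Col4a2, Col6a1, both probe sets of Col6a2, and Col8a1. Of the 49, 40 lay above 0, with a median difference of 0.25 against 0.01 over all tested probe sets. The lowest was -0.42 and the highest 0.86.

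Among fibrillar chains, Col3a1, the chain of type III collagen, read 11.59, 11.94, 11.91 and 12.13 in saline and 12.26, 12.51, 12.43 and 12.40 after KCN. All 4 KCN arrays were above all 4 saline arrays. The difference was 0.51 ± 0.11 (SE), or 1.42-fold (n = 4 and 4, limma adjusted p = 0.00148). Its other probe set, 1427884_PM_at, differed by 0.33 ± 0.24 and was not called. Of the 13 fibrillar probe sets, 12 lay above 0 with a median of 0.33, and only Col3a1 passed. Col5a3 came next, with a difference of 0.59 ± 0.21 and an adjusted p of 0.0518 by limma, and its groups did not overlap.

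Col1a1, the main chain of type I collagen, read 6.997, 7.01, 6.79 and 7.54 in saline and 7.69, 8.38, 7.82 and 7.35 after KCN at 24 h. One KCN array fell inside the saline range, and the difference of 0.73 ± 0.32 did not pass (limma adjusted p = 0.132). At 8 h its arrays read 7.24, 7.58, 7.36 and 7.63 in saline and 7.30, 8.66, 7.94 and 8.74 after KCN, a difference of 0.71 ± 0.32 that did not pass either (limma adjusted p = 0.36). Its spread within groups was wide next to these differences.

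The beaded filament chains had the highest class median at 24 h, 0.58, with 3 of 5 probe sets higher and all 5 above 0. Col6a1 read 7.55, 7.72, 7.96 and 7.91 in saline and 8.24, 8.57, 8.49 and 8.17 after KCN, with no overlap. It rose by 0.58 ± 0.18, or 1.5-fold (limma adjusted p = 0.0268). Col6a2, which pairs with Col6a1 in each type VI molecule, was read by probe sets that were both higher. On 1452250_PM_a_at the saline arrays read 8.57, 9.11, 9.19 and 9.41 and the KCN arrays 9.66, 10.05, 9.96 and 9.75, a rise of 0.79 ± 0.17, or 1.73-fold (limma adjusted p = 0.000902). On 1426947_PM_x_at the saline arrays read 7.10, 7.35, 7.45 and 7.44 and the KCN arrays 8.05, 8.37, 8.31 and 8.07, a rise of 0.86 ± 0.17, or 1.82-fold (limma adjusted p = 0.000451). Neither showed overlap between groups, and both probe sets had the same direction. Such x_at and s_at probe sets can also bind related transcripts.

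Basement membrane chains were mixed at 24 h, with 2 of 11 probe sets higher, 1 lower and a median of 0.19. Col4a1 on 1426348_PM_at read 7.74, 7.87, 7.71 and 8.05 in saline and 8.11, 8.71, 8.53 and 8.52 after KCN, with no overlap, and rose by 0.62 ± 0.16, or 1.54-fold (limma adjusted p = 0.00454). Its brighter probe set 1452035_PM_at read 9.80, 9.95, 9.76 and 10.07 in saline and 9.93, 10.32, 10.15 and 10.16 after KCN, a difference of 0.25 ± 0.12 that did not pass (limma adjusted p = 0.2). The Col4a1 rise at 24 h therefore rests on 1 of its 2 probe sets.

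Col4a2, the partner of Col4a1 in the same triple helix, read 9.11, 9.35, 9.31 and 9.66 in saline and 9.56, 9.84, 9.80 and 9.87 after KCN at 24 h. The groups overlapped, and the rise was 0.41 ± 0.13, or 1.33-fold (limma adjusted p = 0.0258). Col4a5, a chain of the other type IV networks whose loss causes Alport syndrome, read 8.85, 9.06, 8.84 and 9.18 in saline and 8.30, 8.93, 8.47 and 8.53 after KCN. It fell by 0.42 ± 0.13 with overlapping groups (limma adjusted p = 0.0267), and its other probe set, 1425475_PM_at, went the other way by 0.19 and was not called.

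Col8a1, a network collagen of vessel walls, read 6.15, 6.52, 6.30 and 6.61 in saline and 6.87, 7.52, 7.25 and 6.73 after KCN at 24 h on 1418440_PM_at. All KCN arrays were above all saline arrays, and the rise was 0.69 ± 0.19, or 1.62-fold (limma adjusted p = 0.0124). Its brighter probe set, 1455627_PM_at, differed by 0.23 ± 0.22, and 1418441_PM_at by -0.28 ± 0.23, so only 1 of 3 probe sets of the gene was called. The fibril-associated and transmembrane chains had all 6 and all 5 probe sets above 0, each with a median of 0.30, and none passed.

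Leaving out each array in turn gave 5 to 8 calls at 24 h. It was 5 without saline replicate 1 or 2 or KCN replicate 2 or 3. Col3a1, Col4a1 and both Col6a2 probe sets were called in all 8 of these fits. Set against the mean of the 5 saline groups instead of saline at 24 h alone, 0 of the 49 were called at 24 h and Col4a1 (1426348_PM_at) and Col4a2 differed by -0.09 and -0.05. The share of all probe sets called against that mean is not given, so the count is not read as particular to collagens. The calls at 24 h thus hold against the saline hearts of that time and not against the average saline heart.

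Several marker levels moved with the same groups. The summed fibroblast markers, 6 genes, ranged from 12.72 to 12.88 in saline at 24 h and from 12.999 to 13.21 after KCN, without overlap, and 1 of the 6 was called higher. Macrophage markers ranged from 10.61 to 10.90 and from 10.97 to 11.31, with 2 of 5 genes called higher. The smooth muscle and pericyte markers ranged from 12.09 to 12.23 and from 12.15 to 12.60, with 0 of 5 called. Their part in the collagen difference was not tested.

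The summed adipocyte markers (Adipoq, Lep and Ucp1) ranged from 5.56 to 9.41 in saline at 24 h and from 8.77 to 11.49 after KCN, with Lep near background in both and 0 of the 3 called by limma. With that level as a covariate, 7 of the 8 collagen calls at 24 h were kept, and Col6a1 was the call that was lost, with a change of 0.56. The actin ratio, log2 signal of the 3′ minus that of the 5′ actin probe set and a measure of RNA and labelling quality, was 0.878 ± 0.091 (SD, n = 4) in saline and 0.473 ± 0.131 (n = 4) after KCN at 24 h (two-sided exact permutation p = 0.0286, the smallest this design allows, adjusted p = 0.0857 over the 9 comparisons). With it as a covariate, 6 probe sets were called at 24 h, 5 of them shared. The ratios of these groups did not overlap, so covariate and exposure cannot be told apart. The share of all probe sets called in that fit is not given.

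**Figure D2:**
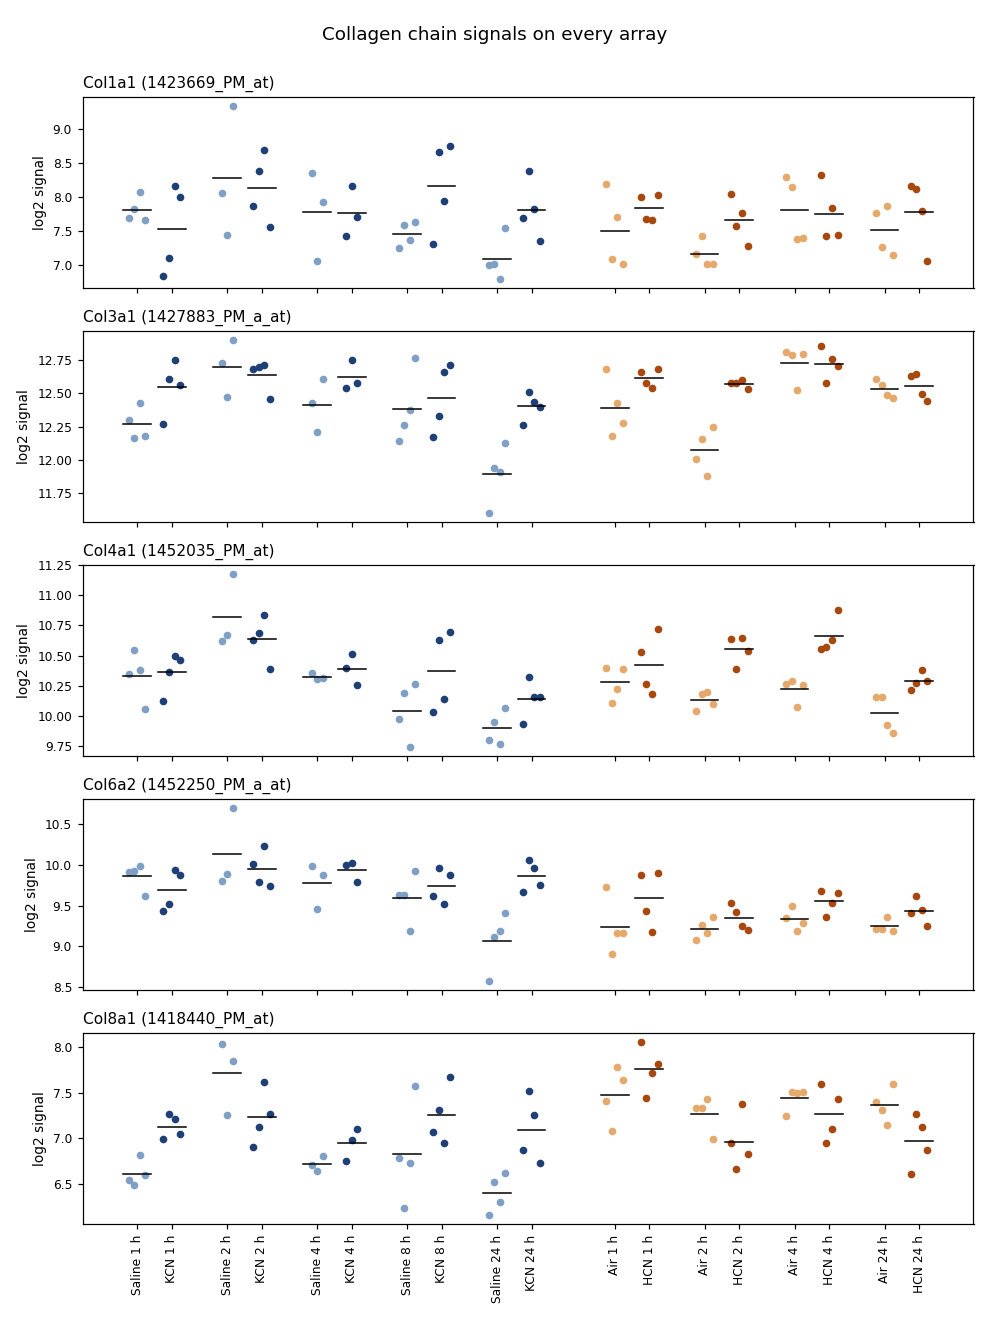
Log2 signal of Col1a1, Col3a1, Col4a1 (1452035_PM_at), Col6a2 (1452250_PM_a_at) and Col8a1 (1418440_PM_at) on every array, by group along the horizontal axis. Each dot is an array and each black line a group mean; the Col6a2 arrays of saline 24 h lie between 8.57 and 9.41 and those of KCN 24 h between 9.66 and 10.05.

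**Figure D3:**
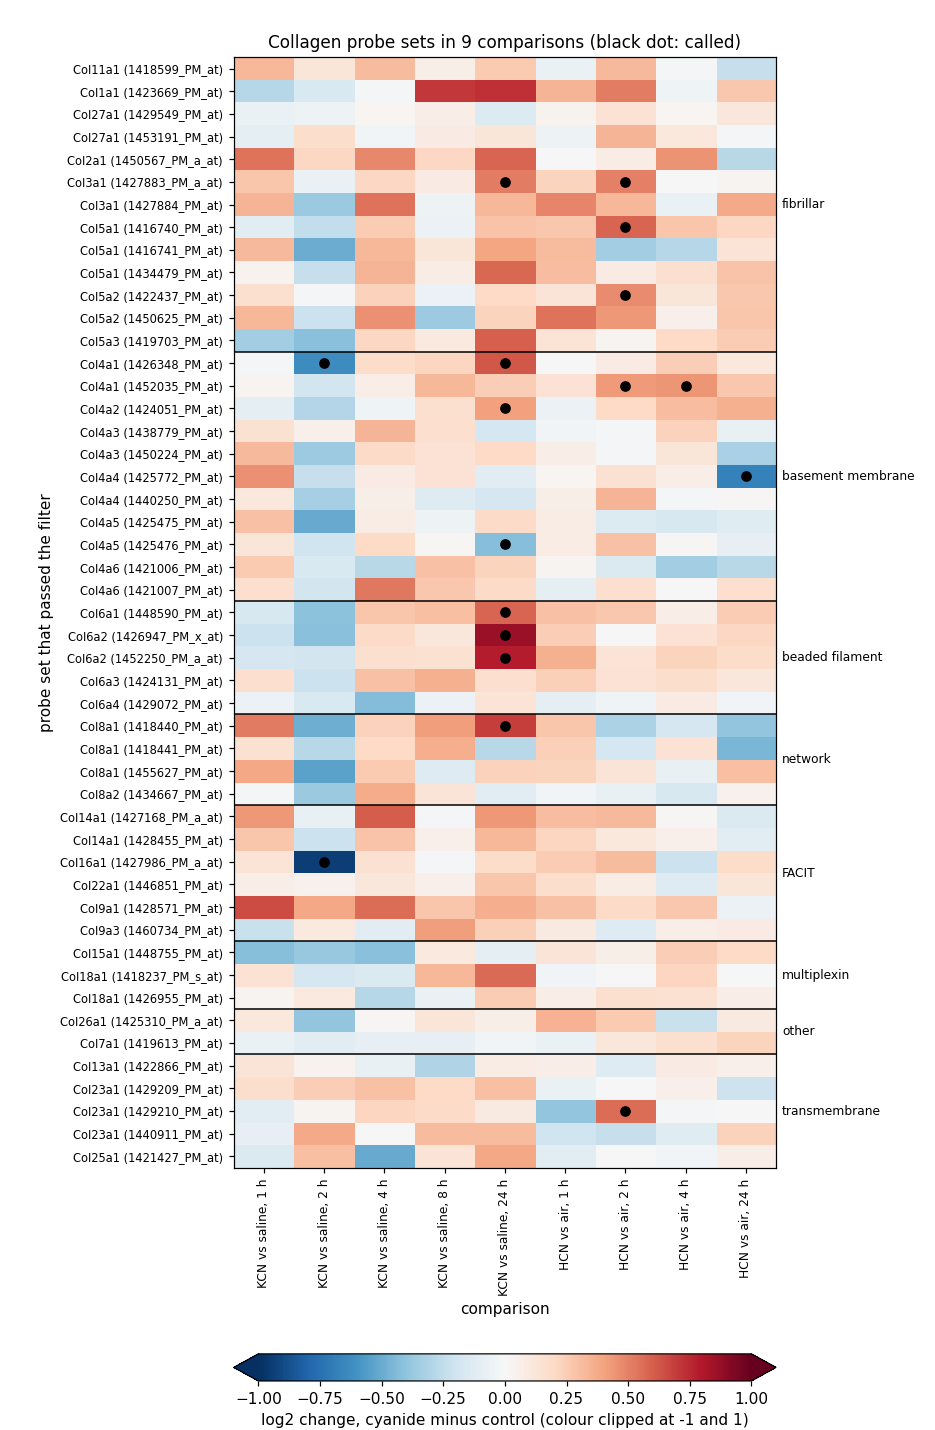
Log2 difference, cyanide minus control, of the 49 tested collagen probe sets (vertical axis, ordered by class) in each of the 9 comparisons (horizontal axis), with colours ending at -1 and 1. Black dots mark the called differences: 8 at KCN 24 h, 5 at HCN 2 h, 2 at KCN 2 h, and 1 each at HCN 4 h and HCN 24 h.

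Fibrillar and basement membrane chains were next set against each other within each array, as the mean of 8 fibrillar genes minus that of 6 basement membrane genes. The log2 signals were used without centring, so the score carries the level of each gene and only differences between groups are read. No test was run on this score. For KCN at 24 h the saline arrays read -0.51, -0.62, -0.56 and -0.46 and the KCN arrays 0.00, -0.08, -0.06 and -0.43, so that the groups did not overlap. The means were -0.54 ± 0.07 (SD, n = 4) and -0.14 ± 0.19 (SD, n = 4), a difference of 0.40, which ran from 0.35 to 0.49 as each array was left out. Fibrillar chains differed by 0.41 and basement membrane chains by 0.01 on average. The latter mean joined rises in Col4a2 (0.41), Col4a1 (0.25) and Col4a6 (0.19) with falls in Col4a5 (-0.42), Col4a3 (-0.18) and Col4a4 (-0.17). It does not mean that each of these chains was unchanged. Among the fibrillar genes, Col11a1 (0.26) was near background in both groups and Col2a1 (0.58) in saline. The other 4 saline groups had means of -0.34 to -0.16 and the 5 KCN groups of -0.26 to -0.14, so saline at 24 h was the group that stood apart. In the other 8 comparisons the groups overlapped, with differences of -0.05 to 0.14. For HCN at 2 h both classes were higher, fibrillar by 0.35 and basement membrane by 0.24.

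**Figure D4:**
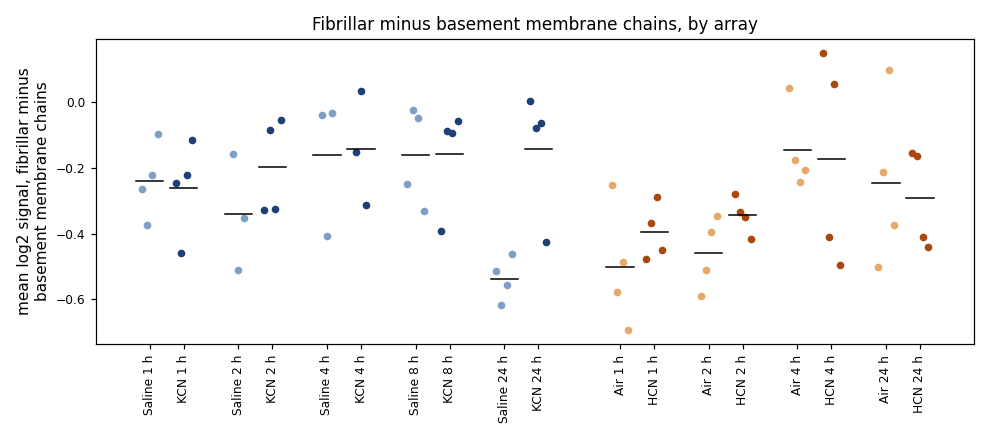
Mean of 8 fibrillar genes minus mean of 6 basement membrane genes, in log2 units without centring, on every array and by group. Dots are arrays and black lines group means; the saline 24 h arrays lie between -0.62 and -0.46 and the KCN 24 h arrays between -0.43 and 0.00.

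At 2 h after KCN the collagens leaned the other way. Of the 49 probe sets, 0 were higher and 2 lower, against 6.59% of all probe sets (3.3% in each direction). Differences lay below 0 in 36 of 49, with a median of -0.19 against -0.02 over all tested probe sets. All 5 beaded filament and all 4 network probe sets lay below 0, while all 5 transmembrane probe sets lay above it.

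Col16a1, a fibril-associated chain, read 5.63, 5.18 and 5.65 in saline at 2 h and 4.79, 4.27, 4.89 and 4.23 after KCN. The groups did not overlap, and it fell by 0.94 ± 0.16 (n = 3 and 4, limma adjusted p = 0.000104). Col4a1 on 1426348_PM_at read 9.44, 9.21 and 10.04 in saline and 8.72, 9.20, 9.30 and 8.51 after KCN, and fell by 0.63 ± 0.17 with overlapping groups (limma adjusted p = 0.013). On 1452035_PM_at it read 10.62, 10.67 and 11.18 in saline and 10.63, 10.68, 10.84 and 10.39 after KCN, a difference of -0.19. The fall in Col4a1 was thus seen on its dimmer probe set.

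Both changes rest on the saline 2 h arrays. When KCN at 2 h was set against the other 4 saline groups, 13 probe sets were higher, 0 lower, and Col4a1 (1426348_PM_at) and Col16a1 differed by 0.63 and 0.20. These groups are of other times, over which 38.4% of all probe sets differed in saline, and the share called against them is not given. The 3 saline arrays of 2 h carried summed platelet markers of 8.98 to 9.96, against 8.34 to 8.79 after KCN at 2 h and 7.95 to 8.46 in saline at 1 h, and all 5 platelet markers were lower after KCN. Their fibroblast markers ranged from 13.20 to 13.51, against 12.91 to 13.23 after KCN. The part of either in the collagen difference was not tested. With the adipocyte marker level as a covariate, both calls were kept. As arrays were left out in turn, 1 to 5 probe sets were called, with 5 without saline replicate 2 and 1 without saline replicate 3, KCN replicate 1 or KCN replicate 4.

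At 1, 4 and 8 h after KCN, 0 of 49 collagens were called by limma, against 4.09%, 2.26% and 0.336% of all probe sets. At an unadjusted p under 0.05 there were 4, 4 and 5, against 18%, 16.4% and 11.9% of all probe sets. The medians were 0.12, 0.19 and 0.12, with 31, 37 and 36 of 49 above 0. At 1 h Col8a1 (1418440_PM_at) read 6.54, 6.48, 6.82 and 6.60 in saline and 6.99, 7.26, 7.21 and 7.05 after KCN. These groups did not overlap, and the difference of 0.52 ± 0.19 had an adjusted p of 0.123 by limma. Col3a1 differed by 0.28 ± 0.11 at 1 h (limma adjusted p = 0.155), with saline arrays of 12.16 to 12.43 and KCN arrays of 12.27 to 12.75.

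After HCN inhalation the largest number of collagen calls came at 2 h, when 5 probe sets were higher and 0 lower, 10.2% of the 49, against 25.3% of all probe sets (8.8% higher, 16.5% lower). The calls were 3 fibrillar chains, Col4a1 and Col23a1. The median over the 49 was 0.13, against -0.04 over all tested probe sets, and 33 lay above 0. Fibrillar probe sets had the highest class median, 0.34, with 12 of 13 above 0, and basement membrane probe sets had 0.16, with 7 of 11 above 0.

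Col3a1 read 12.002, 12.15, 11.87 and 12.25 in air at 2 h and 12.58, 12.58, 12.60 and 12.53 after HCN, with no overlap. It rose by 0.50 ± 0.11, or 1.42-fold (limma adjusted p = 0.000626). Its dimmer probe set differed by 0.34 and was not called. The air group of that time was also the lowest of the 4 air groups for this gene. Col5a1, the common chain of type V collagen, read 7.49, 7.96, 7.84 and 7.97 in air and 8.61, 8.31, 8.30 and 8.34 after HCN, and rose by 0.58 ± 0.19, or 1.49-fold (limma adjusted p = 0.0181). Its groups did not overlap on this probe set, 1416740_PM_at, but 1416741_PM_at differed by -0.35 and was not called.

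Col5a2, the partner of Col5a1, read 8.90, 9.14, 8.78 and 9.44 in air and 9.59, 9.60, 9.51 and 9.45 after HCN at 2 h. All HCN arrays were above all air arrays, with 9.45 and 9.44 as the closest pair, and it rose by 0.47 ± 0.16, or 1.39-fold (limma adjusted p = 0.0245). Col1a1 read 7.16, 7.43, 7.004 and 7.01 in air and 8.04, 7.57, 7.77 and 7.27 after HCN, a difference of 0.51 ± 0.32 that did not pass (limma adjusted p = 0.254). Col5a3, the other type V chain, differed by 0.03 ± 0.21 (limma adjusted p = 0.946). Whether these chains differ from each other was not tested.

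Col4a1 on 1452035_PM_at read 10.04, 10.18, 10.20 and 10.09 in air at 2 h and 10.64, 10.39, 10.65 and 10.54 after HCN, a rise of 0.42 ± 0.12, or 1.34-fold (limma adjusted p = 0.00877). At 4 h it read 10.26, 10.29, 10.07 and 10.25 in air and 10.56, 10.57, 10.63 and 10.88 after HCN, a rise of 0.44 ± 0.12, or 1.36-fold (limma adjusted p = 0.0178). Neither time showed overlap on this probe set. On 1426348_PM_at the differences were 0.09 ± 0.16 at 2 h and 0.25 ± 0.16 at 4 h with overlapping groups, so both calls rest on 1 of the 2 probe sets. At 4 h Col4a1 was the only collagen called, 1 higher of 49 against 7.35% of all probe sets (2.87% higher, 4.48% lower). Without air replicate 3 or HCN replicate 4 that call was lost and 0 remained. Col23a1, a membrane-spanning collagen, read 2.88, 3.48, 2.79 and 2.81 in air at 2 h and 3.48, 4.21, 3.30 and 3.19 after HCN on 1429210_PM_at. It was called with a rise of 0.55 ± 0.20 (limma adjusted p = 0.0333), its groups overlapped, and the air group was near background. Its brighter probe set, 1440911_PM_at, differed by -0.23 and 1429209_PM_at by -0.0006, and neither was called.

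The 2 h calls numbered 2 to 7 as each array was left out, with 2 without air replicate 1 and 3 without air replicate 3 or HCN replicate 2. Col3a1 and Col4a1 were called in all 8 of these fits. The actin ratio was 0.452 ± 0.143 (SD, n = 4) in air and 1.22 ± 0.61 (SD, n = 4) after HCN at 2 h (two-sided exact permutation p = 0.0571, adjusted p = 0.129). With that ratio as a covariate, Col3a1 was the 1 collagen still called, and 2 were called without the 2 HCN arrays of highest ratio. The shares of all probe sets called in these fits are not given, so the counts are not read as particular to collagens. Endothelial markers ranged from 10.60 to 10.89 in air and from 10.30 to 10.52 after HCN at 2 h, with 3 of 6 genes lower, and fibroblast markers from 13.23 to 13.30 and from 13.04 to 13.33. The part of these markers in the collagen difference was not tested.

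At 24 h after HCN, 0 collagens were higher and 1 was lower, against 14.3% of all probe sets (5.08% higher, 9.25% lower). This was Col4a4 on 1425772_PM_at, a chain of the type IV network of kidney and lung, which read 4.23, 3.94, 4.26 and 4.10 in air and 3.33, 3.25, 3.52 and 3.71 after HCN. The groups did not overlap, and it fell by 0.68 ± 0.16 (limma adjusted p = 0.0019). Its brighter probe set, 1440250_PM_at, differed by 0.01, so this fall was not seen on both. The actin ratio was 0.386 ± 0.045 (SD, n = 4) in air and 0.979 ± 0.255 (SD, n = 4) after HCN at 24 h, and with it as a covariate 0 were called. The ratios did not overlap between the groups, so covariate and exposure cannot be told apart. The share of all probe sets called in that fit is not given.

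Col4a2 read 9.81, 9.68, 9.58 and 9.61 in air at 24 h and 10.08, 10.001, 10.14 and 9.88 after HCN, a difference of 0.36 ± 0.13 without overlap that narrowly missed the threshold (limma adjusted p = 0.0515). At 1 h after HCN, limma called 0 of 49, against 2.68% of all probe sets, with 4 at an unadjusted p under 0.05, against 14.6% of all probe sets, and a median of 0.09.

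Averaged over the 5 times, KCN against saline gave 4 higher collagens and 0 lower, against 9.52% of all probe sets (5.07% higher, 4.45% lower). Col3a1 rose by 0.20 ± 0.05 (limma adjusted p = 0.00915) and Col8a1 on 1418440_PM_at by 0.28 ± 0.09 (limma adjusted p = 0.0441), while its brighter 1455627_PM_at differed by 0.04 ± 0.10. The others were Col9a1 and Col23a1 (1429209_PM_at). Averaged over 4 times, HCN against air gave 7 higher and 0 lower, against 21.5% of all probe sets (7.4% higher, 14.1% lower). Col4a1 (1452035_PM_at) rose by 0.32 ± 0.06 (limma adjusted p = 0.000121) and Col5a1 by 0.33 ± 0.09 (limma adjusted p = 0.00756). Col3a1 rose by 0.19 ± 0.06 (limma adjusted p = 0.0132), and Col4a2, both probe sets of Col5a2 and Col6a2 (1452250_PM_a_at) were also called. Col3a1 was the gene called in both averages. With the level of airway and lung epithelium markers as a covariate, the averaged KCN calls were lost, as given below. With the actin ratio as a covariate, fewer collagens were called in the HCN average. The share of all probe sets called with that covariate is not given.

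The effect of HCN minus the effect of KCN was then tested at the times that both arms share. At 2 h, 5 collagens had a higher difference for HCN and 0 a lower, against 5.74% of all probe sets (2.15% higher, 3.59% lower). These were Col16a1, with 1.25 ± 0.22 (limma adjusted p = 0.00051), Col26a1, Col3a1 with 0.57 ± 0.17 (limma adjusted p = 0.031), and both Col4a1 probe sets. The KCN effect was the larger part for Col16a1 (-0.94), Col26a1 (-0.39) and Col4a1 on 1426348_PM_at (-0.63). Its control, saline at 2 h, was high for many collagens, and the Col16a1 and Col4a1 effects reversed with other saline groups as control. For Col3a1 and Col4a1 on 1452035_PM_at the HCN effect was the larger part, at 0.50 and 0.42 against -0.06 and -0.19 for KCN. The air group at 2 h was the lowest air group for Col3a1. At 24 h, 0 were higher and 2 lower for HCN, against 18.8% of all probe sets (8.11% higher, 10.7% lower): Col8a1 on 1418440_PM_at with -1.09 ± 0.28 (limma adjusted p = 0.00294) and Col3a1 with -0.49 ± 0.16 (limma adjusted p = 0.0247). On 1418440_PM_at Col8a1 read 7.40, 7.31, 7.14 and 7.60 in air at 24 h and 6.61, 7.26, 7.12 and 6.87 after HCN, a difference of -0.40 that did not pass (limma adjusted p = 0.174). On the brighter 1455627_PM_at the differences were 0.30 after HCN and 0.23 after KCN, and their difference of 0.07 ± 0.31 did not pass, so the Col8a1 difference between routes holds on 1 of its probe sets only. The Col3a1 difference at 24 h was likewise 0.05 on its dimmer 1427884_PM_at, which was not called. At 1 and 4 h limma called 0 of 49, against 0.198% and 1.87% of all probe sets, with 1 and 3 at an unadjusted p under 0.05, against 8.71% and 16.5%.

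The multiplexins did not pass in any of the 9 comparisons. For Col15a1, whose chain bridges basement membrane and fibrils, saline arrays at 1 h read 7.45, 7.57, 7.57 and 7.26 and KCN arrays 6.87, 6.58, 7.35 and 7.33, a difference of -0.43 ± 0.23 (limma adjusted p = 0.325). Its differences after KCN were also below 0 at 2 and 4 h, at -0.38 and -0.42, and the highest was 0.25, at 4 h after HCN. Col18a1, the source of the endostatin fragment, ran from -0.28 to 0.26 over the 9 comparisons on 1426955_PM_at. On its other probe set, 1418237_PM_s_at, it differed by 0.56 ± 0.21 at 24 h after KCN (limma adjusted p = 0.0681).

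The remaining members were not called in any of the 9 comparisons. Col11a1, Col13a1, Col22a1, Col25a1, Col7a1 and Col8a2 had means of 2.90 to 3.20 over all arrays, close to background. Col14a1, a fibril-associated chain of heart interstitium, had group means of 6.49 to 7.36 and differences from -0.15 to 0.61, and Col6a3, the large chain of type VI, had group means of 8.07 to 9.24 and differences from -0.22 to 0.36. Col6a4, a further type VI chain, had group means of 2.81 to 3.42 and was not called, so Col6a1 and Col6a2 were the type VI chains that passed at 24 h after KCN. Col27a1, a fibrillar chain of cartilage, had group means of 4.21 to 5.24 and differences from -0.10 to 0.34 on 1453191_PM_at. Col2a1, the cartilage fibril chain, was near background in all 5 saline groups, at 2.61 to 2.98, and had its highest group mean at 4 h after HCN, 4.11, where single arrays spread from 2.84 to 5.49. Col4a3 and Col4a6, further type IV chains, stayed within -0.37 and 0.53 of their controls on all 4 probe sets.

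Col9a1, a chain best known from cartilage, was called only in the KCN average, where it rose by 0.45 ± 0.13 (limma adjusted p = 0.0221). At 1 h it read 3.48, 3.56, 3.15 and 3.37 in saline and 3.88, 3.43, 4.69 and 4.15 after KCN, a difference of 0.65 ± 0.28 (limma adjusted p = 0.192). Airway and lung epithelium markers ranged from 4.84 to 4.95 in saline at 1 h, with all 4 genes near background, and from 12.15 to 12.89 after KCN at 1 h. Cartilage markers ranged from 5.69 to 6.17 and from 6.19 to 6.64, with Acan, Matn1 and Sox9 near background. With the airway marker level as a covariate, the averaged Col9a1 difference was 0.02 and that at 1 h -0.01, and 0 of the 4 averaged KCN calls were kept. With the same covariate, all 8 collagen calls of KCN at 24 h were kept. The airway marker ranges of saline and KCN at 1 h did not overlap, so covariate and exposure cannot be told apart there. These fits are therefore not read as showing what the airway tissue contributed.

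Genes that act on collagen were counted beside the chains. At 24 h after KCN, of the enzymes and chaperones that fold, modify and cross-link collagen, 6 of 19 were higher and 1 lower, with a median of 0.27, where 6.79% of all probe sets were higher and 5.14% lower. Of the proteins that trim procollagen, 2 of 4 were higher, and of the fibril-associated proteoglycans and glycoproteins, 1 of 9. Of the basement membrane partners, 1 of 7 was higher, of the proteases and inhibitors 2 of 9, of the TGF-beta axis 1 of 10, and of the collagen receptors 0 of 5. The control is again saline at 24 h, in which many collagens were low. Bgn, the small proteoglycan biglycan that binds fibrils, rose by 0.68 ± 0.11 (limma adjusted p = 1.09e-05), and Bmp1, the protease that removes the C-propeptide of fibrillar procollagens, rose by 0.84 ± 0.17 (limma adjusted p = 0.000571). Plod3, a lysyl hydroxylase of collagen, rose by 0.70 ± 0.16 (limma adjusted p = 0.00206), and the gelatinase Mmp2 by 0.71 ± 0.15 (limma adjusted p = 0.000943).

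At 2 h after HCN the folding and cross-linking list ran opposite to the called chains, with 1 of 19 higher and 7 lower, where 8.8% of all probe sets were higher and 16.5% lower. The actin ratio differed between these groups, as given above, and its part in these values was not tested. Serpinh1, the collagen chaperone HSP47, fell by 0.91 ± 0.17 (limma adjusted p = 6.02e-05), and Plod1, another lysyl hydroxylase, fell by 0.91 ± 0.18 (limma adjusted p = 0.000126). Ccn2, a matrix-associated TGF-beta target, rose by 1.12 ± 0.21 (limma adjusted p = 6.08e-05), and Timp3, a metalloproteinase inhibitor, rose by 0.96 ± 0.20 (limma adjusted p = 0.000323). Of the basement membrane partners, 2 of 7 were higher, with a median of 0.40. The test of these enzymes against the chains was not made.

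At 2 h after KCN, 0 of 19 folding genes were called. Ccn2 rose by 1.31 ± 0.23 (limma adjusted p = 0.000128) and Timp3 by 0.99 ± 0.22 (limma adjusted p = 0.00264), while Tgfb3, a TGF-beta ligand, fell by 0.60 ± 0.16 (limma adjusted p = 0.0133) and Bmp1 by 0.68 ± 0.18 (limma adjusted p = 0.0154). Bmp1 was thus lower at 2 h and higher at 24 h, each against saline of the same time. The saline 2 h arrays, whose collagen readings were high, are the control of these differences as well.

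Some chains that assemble into 1 molecule are also neighbours on a chromosome. In the RefSeq annotation of build GRCm38.p6, the start sites of Col4a1 and Col4a2 lie 21 bases apart on opposite strands, those of Col4a5 and Col4a6 lie 1343 bases apart on opposite strands, and Col6a1 and Col6a2 lie on 1 strand with starts 102414 bases apart. Col3a1 and Col5a2, and Col4a3 and Col4a4, are adjacent protein-coding genes. How closely each pair moved from array to array was measured on deviations from group means, so that no difference between groups enters.

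Col4a1 and Col4a2 deviated together, with r = 0.828 and rho = 0.864 over the 37 injection arrays and r = 0.821 and rho = 0.818 over the 32 inhalation arrays. Each of these had p = 1e-05 in a permutation test within groups, the smallest that 1e+05 permutations can give. Without the 2 farthest arrays, r was 0.823 and 0.817. Of all tested probe sets, 0.0112% correlated more closely with Col4a1 than Col4a2 did in the injection arm, and 0% in the inhalation arm. Col6a1 and Col6a2 gave r = 0.811 and 0.804 and rho = 0.831 and 0.837, with r = 0.815 in the injection arm without the 2 farthest arrays. Few probe sets thus correlated more closely with Col4a1 than its neighbour did.

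Col3a1 and Col5a2 gave r = 0.748 and 0.841 in the injection and inhalation arms, rho = 0.739 and 0.824, and r = 0.72 and 0.775 without the 2 farthest arrays. The unlinked pair Col1a1 and Col3a1, which lie on different chromosomes, gave r = 0.638 and 0.695, rho = 0.612 and 0.713, and r = 0.579 and 0.623 without the 2 farthest arrays. Col4a5 and Col4a6 gave r = 0.581 and 0.606, rho = 0.492 and 0.641, and r = 0.527 and 0.619 without them. Col4a3 and Col4a4, whose probe sets were dimmer, gave r = 0.488 and 0.479, rho = 0.388 and 0.495, and r = 0.434 and 0.379 without them. Over the 12 relations, the adjusted p of r stayed under the 0.05 threshold in all but Col4a3 and Col4a4 in the inhalation arm (raw and adjusted permutation p = 0.054). Arrays share depth, tissue sampling and RNA quality, and the part of these in the correlations was not tested. The median r of these genes with all tested probe sets was 0.0035 to 0.038, which does not measure that part.

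**Figure D5:**
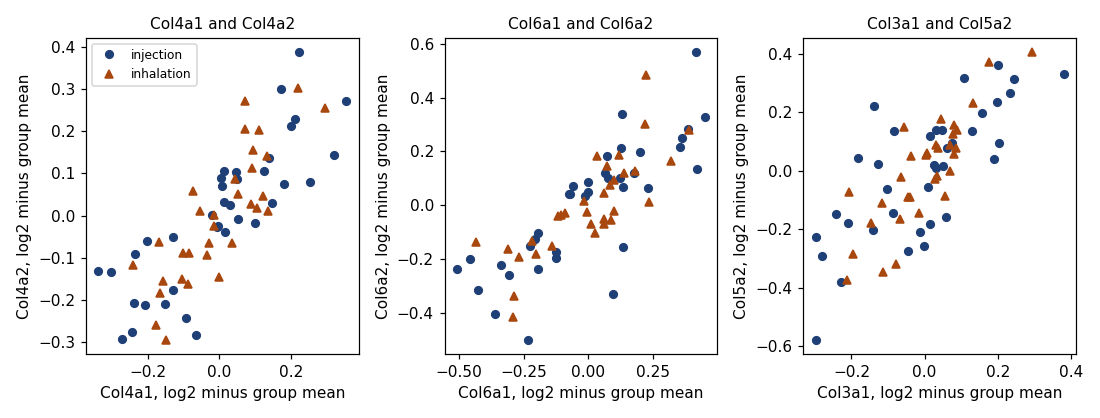
Deviation of each array from its group mean, in log2 units, for 3 pairs of neighbouring genes: Col4a1 and Col4a2, Col6a1 and Col6a2, Col3a1 and Col5a2. Circles are the 37 injection arrays and triangles the 32 inhalation arrays; for Col4a1 and Col4a2, r is 0.828 and 0.821 in the 2 arms.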

How the data were processed

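Affymetrix HT MG-430 PM arrays measured heart RNA, extracted with RNeasy Plus kits and labelled with the 3′ IVT kit from 100 ng, per the labels' protocols. The authors deposited log2 signals from 1.83 to 13.94; that the scale is log2 is read from the values. The submitters' processing notes name MAS5, with no version, and the normalization method is not given in the sources used here. Signals ended at different heights in the arms, so levels were compared within an arm. Gene symbols came from the platform annotation: 28898 probe sets had 1 symbol, 551 several and 15588 none.

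The deposited values were fitted without further normalization in limma 3.58.1 (R 4.3.3) with 1 mean for each of the 18 groups, 51 residual degrees of freedom and a trended prior. Cyanide was set against control of the same time, and p-values were adjusted by Benjamini-Hochberg over 26755 probe sets within each comparison; called means an adjusted p under 0.05. The 104 control probe sets were left out. The fit was tested on simulated data. Figures were drawn with matplotlib 3.10.9. No file names a depth; the number of arrays limits precision.

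A gene's level is that of its brightest passing probe set unless another is named. All genes with a call in the 9 comparisons were named, with per-array values for up to 12 of them, and Col1a1, Col1a2, Col3a1, Col4a1, Col4a2, Col6a1, Col15a1 and Col18a1 always; of other lists, up to 4 called genes of lowest p per comparison. Members and lists were chosen with earlier results of these data known. Alternatives were quantile normalization, median centring, no or a stricter filter (the 75th percentile), a replicate block, separate fits, an actin ratio covariate and leaving out arrays. Chosen after seeing the data were other controls, leaving out 2 HCN arrays, airway or adipocyte marker covariates, and brighter chains only.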

Additional observations from a re-analysis of the deposited data

Results flagged for a closer look

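Single arrays stood apart from the others of their group in 15 of 210 groups tested over 14 probe sets, where 1 in 20 is set by chance, or 10.5. Low arrays were Col8a1 in air 4 h replicate 1 (7.25), Col3a1 in KCN 2 h replicate 4 (12.46) and air 4 h replicate 3 (12.53), Col6a1 in air 2 h replicate 1 (7.97), Col5a2 in KCN 1 h replicate 1 (9.41), Col4a1 on 1452035_PM_at in air 4 h replicate 3 (10.07) and Col4a4 on 1425772_PM_at in KCN 24 h replicate 1 (3.22). Col3a1 and Col4a1 were low on the same air 4 h array. High arrays were Col6a2 on 1452250_PM_a_at in air 24 h replicate 3 (9.36) and Col5a1 in saline 8 h replicate 4 (9.08) and HCN 2 h replicate 1 (8.61). For Col23a1 on 1429210_PM_at, a dim probe set, the arrays were saline 8 h replicate 2 (2.83), KCN 24 h replicate 3 (3.22), air 2 h replicate 2 (3.48), HCN 4 h replicate 1 (3.89) and HCN 24 h replicate 2 (2.8).

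The effects of inhaled and injected cyanide differed, by limma's test of the difference with adjustment over all tested probe sets, for 7 collagen probe sets. These were 5 of 49 at 2 h, against 5.74% of all probe sets, and 2 of 49 at 24 h, against 18.8%. At 2 h the HCN effect exceeded the KCN effect for Col16a1 by 1.25, for Col26a1 by 0.65, for Col3a1 by 0.57 and for Col4a1 by 0.61 on 1452035_PM_at and 0.72 on 1426348_PM_at. The KCN effect was the larger part for Col16a1, Col26a1 and Col4a1 on 1426348_PM_at, and its saline 2 h control was high for many collagens. For Col3a1 and Col4a1 on 1452035_PM_at the HCN effect was the larger part. At 24 h the HCN minus KCN difference was -1.09 for Col8a1 on 1418440_PM_at (0.07 on its brighter 1455627_PM_at) and -0.49 for Col3a1.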

How the results depend on the processing

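Of the 35 called changes of single probe sets, 32 were kept under quantile normalization, 33 under median centring, 31 without the filter and 15 with the actin ratio as a covariate. Of those the setting could test, 15 of 24 were kept when only the groups compared were fitted and 3 of 17 with the mean of all control groups as control. The counts of called collagens that moved were as follows. Quantile normalization gave 1 for KCN at 4 h. Without the filter, HCN at 24 h gave 2, the 2 h difference between routes 3 and air over time 2; the stricter filter gave 2 for the KCN average, 4 for the 24 h route difference and 2 for air. The actin covariate gave 1 for HCN at 2 h, 0 for HCN at 24 h, 2 for the HCN average, and 1 and 0 for the route differences at 2 and 24 h. Fitting a route alone gave 2 for HCN at 24 h. Fitting only the groups compared gave 1 for KCN at 1 h, 0 at 2 h, 3 for HCN at 2 h, 2 at 24 h, and 0 and 6 for the route differences at 2 and 24 h. With the mean of all controls, KCN gave 6 at 2 h, 2 at 8 h and 0 at 24 h, and HCN 4 at 1 h, 6 at 4 h and 3 at 24 h; the other 4 saline groups gave 13 for KCN at 2 h. Without the 2 HCN arrays, HCN at 2 h gave 2. The airway covariate gave 1 for KCN at 4 h, 2 for HCN at 24 h, 0 for the KCN average and 3 for the 2 h route difference, and the adipocyte covariate 1 for KCN at 1 h, 1 at 4 h and 1 for the KCN average. The cause was not tested, and the shares of all probe sets called in these settings are not given.

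With the mean of all controls, reversed values at KCN 2 h were 0.37 for Col4a2, 0.38 and 0.35 for Col4a1 and 0.31 for Col3a1. At KCN 24 h Col4a2 was at -0.049 and Col4a1 at -0.090, and at HCN 4 h 0.29 for Col3a1. With the other 4 saline groups at KCN 2 h they were 0.59 for Col8a1, 0.54 for Col4a2, 0.63 and 0.49 for Col4a1, 0.49 and 0.37 for Col6a2, 0.40 for Col3a1, 0.20 for Col16a1 and 0.57 for Col6a1. Probe sets of a gene disagreed in sign with its brightest one for Col4a5 (0.19 at KCN 24 h, against the called fall), Col5a1 (-0.35 at HCN 2 h, against the called rise), Col23a1 (the called 0.55 at HCN 2 h, against -0.23) and Col4a4 (the called -0.68 at HCN 24 h, against 0.01).

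Leaving out each array gave 5 to 8 calls for KCN at 24 h, 1 to 5 at 2 h and 0 to 1 at 4 h, 2 to 7 for HCN at 2 h, 0 to 1 at 4 h and 1 to 2 at 24 h, 1 to 5 and 6 to 8 for the KCN and HCN averages, 16 to 26 and 2 to 4 for saline and air over time, and 1 to 8 and 1 to 4 for the route differences at 2 and 24 h. The fibrillar minus basement membrane difference ran from -0.07 to 0.05, 0.06 to 0.23, -0.11 to 0.10, -0.05 to 0.08 and 0.35 to 0.49 for KCN at 1, 2, 4, 8 and 24 h, and from 0.04 to 0.19, 0.07 to 0.16, -0.14 to 0.08 and -0.13 to 0.07 for HCN.

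Same-numbered arrays correlated at -0.14 to 0.32 in their deviations, and in no comparison were all pairs above 0.1. Pairing by number was thus not shown, and these correlations cannot exclude it. The array of the same number was the closest for 3 of 4 pairs at 1 h in both arms and for 0 of 4 at 24 h in both. With the replicate block, KCN at 2 h gave 3 calls, KCN at 24 h 8, HCN at 2 h 5, HCN at 4 h 1 and HCN at 24 h 1. Over all probe sets, quantile normalization moved the share of higher calls from 34.8% to 46.0% for HCN at 2 h, from 39.0% to 51.7% for HCN at 4 h and from 53.7% to 37.8% for KCN at 4 h, and median centring from 41.1% to 29.3% for KCN at 8 h.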
